A study of Drosophila melanogaster with 6 samples.

Results

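The genes described here are 10 Drosophila genes of synaptic vesicle endocytosis: Chc, AP-2alpha, stnA, stnB, shi, EndoA, Amph, Dap160, Synj and sky. They were chosen by name, and every transcript listed under any of these names was kept, which gave 59 transcripts of 36294 in all and 10 gene names of 17136. RNA was sequenced from the brains of third-instar larvae of the Canton-S strain, taken 6 days after egg-laying. The alcohol group (3 pools) was raised on cornmeal food mixed to 5% ethanol and topped up each day with dilute ethanol, and the control group (3 pools) on cornmeal food mixed with water and not topped up, so ethanol and the daily additions cannot be told apart. Each pool held about 30 brains, so a value is the mean of many animals and of all cell types of the brain, and fewer cells of a type cannot be told apart from less RNA per cell. The labels do not say whether the pools of a group came from separate cultures, so the p-values measure the spread between these pools. Levels are FPKM, fragments scaled by transcript length and by the depth of the library, which allows genes of different length to be compared, and the level of a gene is the sum over its transcripts.

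At a synapse, vesicles that have fused with the plasma membrane are retrieved and filled again. Clathrin and its adaptors gather the vesicle membrane into a pit, curved proteins of the BAR domain family shape the neck, dynamin cuts it, and a phosphoinositide phosphatase helps to strip the coat before the vesicle returns to the pool. In flies this cycle has been studied largely through paralytic mutants, of which the temperature-sensitive alleles of shi are the best known. The comparison asked whether the RNA of this machinery differed in brains of larvae that grew up on alcohol.

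No member gene met the call rule (a log2 fold change beyond 1 in either direction and an unadjusted p under 0.05) in limma's model of log2(FPKM + 1). Of the 10 members 0 were called, beside 1.36% of the 8247 genes tested, and 0 had an unadjusted p under 0.05, beside 3.42% of all genes. The ordinary F-test also gave 0 members at an unadjusted p under 0.05, beside 334 of all 8247 genes tested. The values of the alcohol and the control pools overlapped for all 10 members, whereas 6.21% of all tested genes had groups that did not overlap. The log2 fold change was below 0 for 7 members and above 0 for 3, with a median of -0.13 beside -0.033 over all tested genes. stnA and stnB, both below 0, are counted separately here although they are names of a single locus. All 10 of the 95% intervals lay between -1 and 1, the lowest bound being -0.90 and the highest 0.67. In the reported fit, a change of 2-fold in either direction on this scale was therefore outside the interval of each summed gene. Intervals under other scalings or with a pool left out are not given here, so this bound is not claimed for them. The sign of the fold change of shi, stnB, AP-2alpha, Dap160, EndoA and sky turned under at least 1 alternative scaling, filter or left-out pool, so no direction is given for these.

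**Figure D1:**
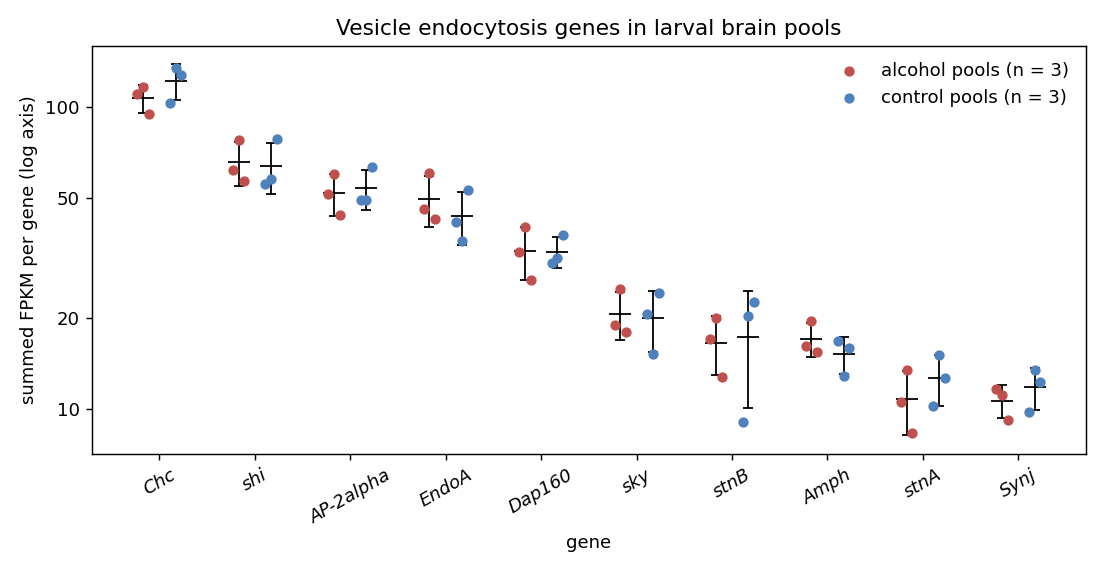
Summed FPKM (log axis) of the 10 genes, ordered by their mean over the 6 pools, with alcohol pools in red left of control pools in blue. Points are single pools, and bars give the mean and the SD of 3 pools. The groups overlap for every gene, and the genes range from 115 FPKM (Chc) to 11.3 FPKM (Synj) on average.

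The members kept much the same order of levels from pool to pool. Taking stnA and stnB as a single locus for a reason given below, the mean summed FPKM over the 6 pools was 115 for Chc, 64.9 for shi, 53.0 for AP-2alpha, 46.6 for EndoA, 33.3 for Dap160, 28.7 for the stn locus, 20.4 for sky, 16.2 for Amph and 11.3 for Synj. Only Chc and shi, the first neighbours in this order, had ranges that did not overlap. The order of shi over AP-2alpha, of EndoA over Dap160 and of sky over Amph held in 6 of 6 pools, and the order of the remaining neighbours held in 5 of 6 pools. Coverage, the mean number of reads over each base summed over a gene's transcripts, was 300 to 573 for Chc and 31.8 to 57.1 for Synj.

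Chc encodes the clathrin heavy chain, the main part of the coat. Its summed level was 110.4, 117 and 94.9 FPKM in the alcohol pools, against 103, 135 and 128 FPKM in the control pools. Alcohol pool 3 was the lowest of all, but control pool 1 lay below alcohol pools 1 and 2. The log2 fold change was -0.29 (SE 0.14, 95% interval -0.65 to 0.07) with a limma unadjusted p of 0.095. After Benjamini-Hochberg adjustment in limma, p was 0.999 for each of the 10 members.

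AP-2alpha is the alpha subunit of AP-2, the adaptor that links clathrin to the plasma membrane. It had 51.6, 60.3 and 43.9 FPKM in the alcohol pools, against 49.2, 49.2 and 63.5 FPKM in the control pools. The means of 51.9 ± 8.24 FPKM in alcohol pools and 54.0 ± 8.23 FPKM in control pools (SD, n = 3 each) were within 1 SD of each other, and the log2 fold change was -0.16 (95% interval -0.61 to 0.30).

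The stn locus encodes the stonins, of which the stnB product binds synaptotagmin and acts as an adaptor for it. stnA had 10.5, 13.5 and 8.35 FPKM in the alcohol pools, against 10.2, 15.2 and 12.7 FPKM in the control pools, with a log2 fold change of -0.37 (95% interval -0.90 to 0.17). stnB had 17.03, 20.1 and 12.8 FPKM in the alcohol pools, against 9.05, 20.4 and 22.6 FPKM in the control pools, with a log2 fold change of -0.36 (95% interval -0.83 to 0.10). The widest spread of the members belonged to stnB, whose lowest value was in control pool 1. The fold change of stnB was 0.014 when the library-size covariate of the model was left out, so its direction came with that term.

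shi encodes dynamin, the GTPase that cuts the neck of the pit. Its summed level was 62.1, 77.8 and 57.1 FPKM in the alcohol pools, against 55.9, 58.0 and 78.3 FPKM in the control pools. In each group 2 pools lay near 60 FPKM and 1 pool lay near 78 FPKM, namely alcohol pool 2 and control pool 3. The log2 fold change was -0.094 (95% interval -0.55 to 0.36), and it was 0.040 without the covariate.

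EndoA encodes endophilin A, a BAR domain protein that bends membrane and recruits synaptojanin. It had 45.9, 60.7 and 42.6 FPKM in the alcohol pools, against 41.6, 36.1 and 53.1 FPKM in the control pools, and its log2 fold change was 0.098 (95% interval -0.47 to 0.67). Amph encodes amphiphysin, another BAR domain protein, which in flies is best known for membrane tubules of muscle rather than for vesicle retrieval. It had 16.2, 19.6 and 15.5 FPKM in the alcohol pools, against 16.9, 12.8 and 16.0 FPKM in the control pools, and its log2 fold change of 0.18 was the highest of the members (95% interval -0.28 to 0.64). Dap160 is intersectin, a scaffold with several SH3 domains that holds dynamin and other endocytic proteins at the synapse. It had 33.2, 40.2 and 26.9 FPKM in the alcohol pools, against 30.4, 31.8 and 37.7 FPKM in the control pools, with means of 33.4 ± 6.68 FPKM in alcohol pools and 33.3 ± 3.85 FPKM in control pools (SD, n = 3 each) and a log2 fold change of -0.10 (95% interval -0.58 to 0.37).

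Synj encodes synaptojanin, the phosphoinositide phosphatase that works in uncoating. It was the lowest of the members, with 11.7, 11.1 and 9.19 FPKM in the alcohol pools, against 9.79, 13.5 and 12.3 FPKM in the control pools. Its log2 fold change was -0.24 (95% interval -0.64 to 0.17). sky encodes Skywalker, a GTPase-activating protein for Rab35 that restrains the passage of vesicles through endosomes. It had 19.0, 25.0 and 18.0 FPKM in the alcohol pools, against 20.7, 15.2 and 24.3 FPKM in the control pools, and its log2 fold change of 0.0089 (95% interval -0.64 to 0.65) was the nearest to 0. This sum leaves out an entry listed under CG43739, given below, whose exons are identical to those of sky-RG.

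**Figure D2:**
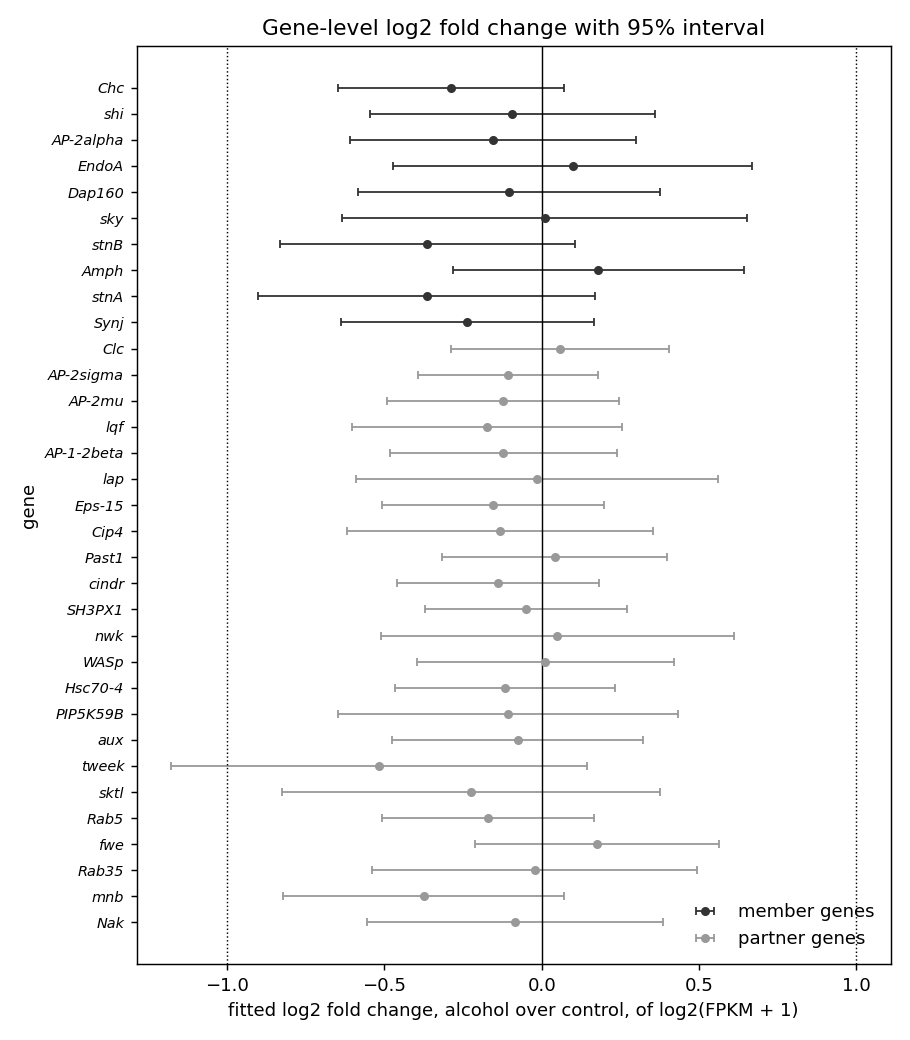
Fitted log2 fold change (alcohol over control) of log2(FPKM + 1) with its 95% interval, for the 10 member genes (dark) and the 23 tested partner genes (grey). Dotted lines mark -1 and 1. Each interval crosses 0, and all 10 member intervals stay between the dotted lines.

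The annotation of the dm6 genome placed the members on 4 chromosome arms. shi lies at X:15892116-15906716 on the plus strand and Chc, also on X, at X:15827986-15835490 on the minus strand. AP-2alpha (2L:408030-414777), Dap160 (2L:21134439-21142347) and sky (2L:20871335-20918931) lie on the minus strand of 2L. EndoA lies at 3R:18906609-18910755, Synj at 2R:22080176-22085767 and Amph at 2R:12593604-12612068, all on the plus strand. Of the 59 transcripts 57 matched an annotated transcript by position and length, and together they encode 29 distinct coding sequences. Amph overlaps 2 antisense RNA genes and sky overlaps 3 antisense genes. The library kit keeps strand, but whether strand was used in quantification is not given in the sources used here.

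stnA and stnB could not be measured separately. Both names span X:22980722-23004648 on the minus strand, because the locus makes a single RNA with a pair of reading frames, and each of the 4 stnA transcripts has an stnB entry with identical exons. The share of the locus listed under stnB was 61.8%, 59.8% and 60.4% in the alcohol pools, against 46.9%, 57.3% and 64.1% in the control pools. For stnA-RD and stnB-RE, the same exons under the 2 names, the ratio of stnB-RE to stnA-RD went as low as 1.68 and as high as 3.09 over the 6 pools, and for stnA-RC and stnB-RF as low as 0.297 and as high as 0.663. Summed over both names, the locus had 27.6, 33.5 and 21.1 FPKM in the alcohol pools, against 19.3, 35.5 and 35.3 FPKM in the control pools. With the names merged, a choice made after the values were seen, the log2 fold change was -0.38 (SE 0.19, 95% interval -0.87 to 0.10) and the limma unadjusted p was 0.099.

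**Figure D3:**
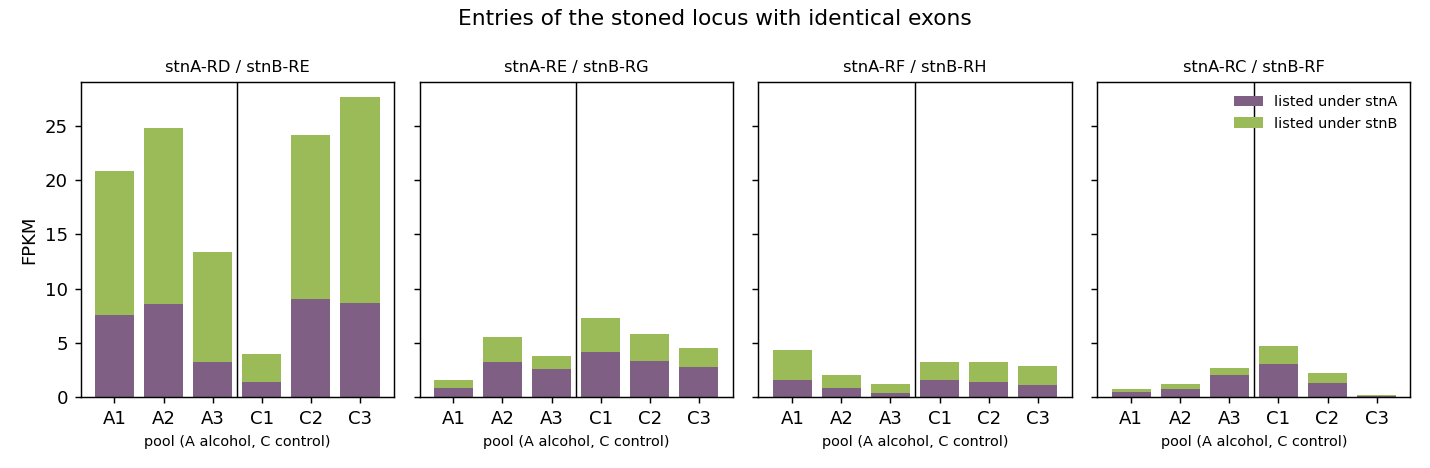
FPKM in each pool (A, alcohol pools, C, control pools) of the 4 sets of entries of the stn locus that have identical exons, with the part listed under stnA below and the part listed under stnB above. The stnA-RD and stnB-RE entries hold most of the locus in 5 pools and 4.02 FPKM in control pool 1.

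stnA-RD had 7.55, 8.62 and 3.27 FPKM in the alcohol pools, against 1.42, 9.02 and 8.68 FPKM in the control pools. stnB-RE had 13.3, 16.1 and 10.1 FPKM in the alcohol pools, against 2.61, 15.1 and 18.9 FPKM in the control pools. Both were thus low in control pool 1, the pool in which stnA-RE and stnB-RG were highest. stnA-RE had 0.868, 3.24 and 2.63 FPKM in the alcohol pools, against 4.17, 3.38 and 2.76 FPKM in the control pools. stnB-RG had 0.702, 2.29 and 1.14 FPKM in the alcohol pools, against 3.14, 2.49 and 1.82 FPKM in the control pools. These entries differ in exon choice, and none of the 8 has a base of its own.

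At the level of single transcripts 30 of the 59 passed the filter, a variance of FPKM above 1 over the pools, and 29 did not. Of the 30 tested, 0 were called, beside 3.85% of the 14645 transcripts tested. In limma 0 had an unadjusted p under 0.05, beside 4.76% of all transcripts. The ordinary F-test also gave 0, beside 632 of 14645. The groups did not overlap for 1 of the 30, Chc-RB, beside 7.72% of all tested transcripts. The log2 fold changes ran as low as -2.68 and as high as 1.20 with a median of -0.15, beside -0.0045 over all tested transcripts. Only 4 of the 30 had a 95% interval between -1 and 1, against 10 of 10 summed genes. Of the 29 left out, 3 were listed at 0 in every pool and the highest had a mean of 2.07 FPKM.

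The 7 Chc transcripts encode 1 protein of 1678 residues and differ in their noncoding exons. Chc-RB is the only transcript of the 7 that starts at X:15834754, inside the gene, and has 123 bases that no other transcript of the locus holds. It had 8.99, 10.3 and 26.4 FPKM in the alcohol pools, against 7.27, 2.94 and 5.90 FPKM in the control pools. Every alcohol pool was higher than every control pool, and alcohol pool 3 stood well above the other 2. Its log2 fold change was 1.20 (SE 0.70, 95% interval -0.62 to 3.02) with a limma unadjusted p of 0.15 and a Benjamini-Hochberg adjusted p of 0.999. As a share of the gene, Chc-RB made up 8.14%, 8.76% and 27.8% in the alcohol pools, against 7.02%, 2.18% and 4.62% in the control pools. It was called in 4 of the alternative fits, among them the fit without the covariate, where its log2 fold change was 1.26. That fit called 348 of all 14645 transcripts tested.

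The other Chc transcripts share their start. Chc-RA had 39.8, 31.0 and 38.7 FPKM in the alcohol pools, against 67.7, 93.0 and 36.2 FPKM in the control pools, and was the leading transcript in all 6 pools. Control pools 1 and 2 were above every alcohol pool and control pool 3 was among them. Chc-RC had 31.6, 23.6 and 13.5 FPKM in the alcohol pools, against 14.9, 18.4 and 29.1 FPKM in the control pools. Chc-RE, named after its values were seen because its fold change was the lowest, was listed at 0 in alcohol pool 1 and in control pool 1, with 25.5 and 15.6 FPKM in the other alcohol pools and 7.29 and 27.3 FPKM in the other control pools. The fitted log2 fold change of Chc-RE was -2.68 (95% interval -5.64 to 0.29), although its mean was 13.7 FPKM in alcohol pools and 11.5 FPKM in control pools.

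shi had 15 transcripts, of which 13 were annotated with products of 830 to 896 residues. shi-RP, which encodes the product of 881 residues, had 25.1, 26.0 and 21.9 FPKM in the alcohol pools, against 10.7, 23.1 and 14.4 FPKM in the control pools. Control pool 2 fell among the alcohol pools and the other 2 control pools below them, and the log2 fold change was 0.40 (95% interval -0.63 to 1.43). shi-RO, with the product of 834 residues, had 12.0, 21.7 and 12.0 FPKM in the alcohol pools, against 15.4, 11.3 and 19.8 FPKM in the control pools. The transcripts that encode 830 residues together made up 40.1%, 38.3% and 40.3% of shi in the alcohol pools, against 45.6%, 40.2% and 55.3% in the control pools. Of the alcohol pools 2 lay below every control pool and 1 just above the lowest, with an exact two-sided permutation p of 0.2. The smallest p this test can give with 3 pools against 3 is 0.1.

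**Figure D4:**
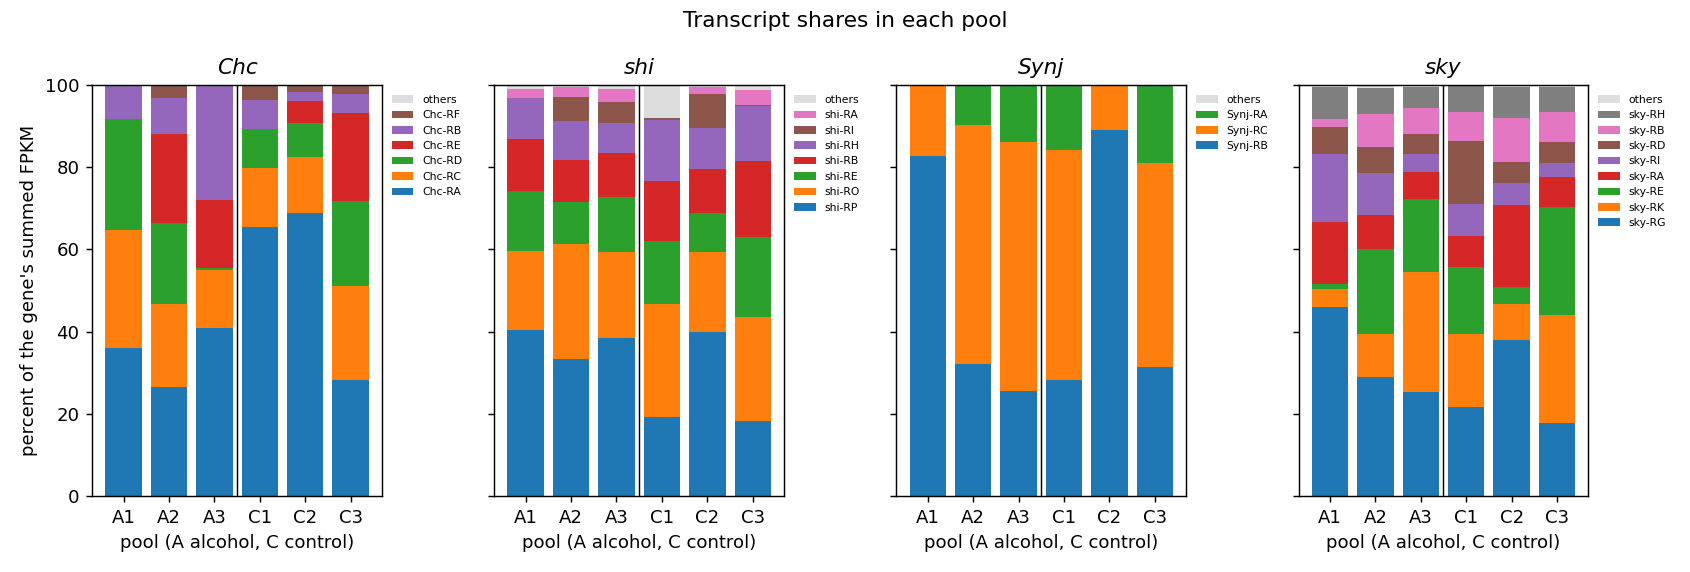
Share of the summed FPKM of Chc, shi, Synj and sky taken by each transcript with a mean of at least 1 FPKM, in percent, with alcohol pools A1 to A3 left of the line and control pools C1 to C3 right of it. Pools of the same group differ widely, as for Synj-RB with 82.8% in A1 and 25.6% in A3.

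sky had 12 transcripts with 7 coding products of 568 to 607 residues. sky-RI is the only one of them with its start at 2L:20885976, and has 170 bases of its own. It had 3.14, 2.56 and 0.775 FPKM in the alcohol pools, against 1.64, 0.832 and 0.794 FPKM in the control pools. Alcohol pools 1 and 2 were above every control pool, and alcohol pool 3 was the lowest of the 6. Its log2 fold change was 1.03 (SE 0.40, 95% interval -0.03 to 2.08) with a limma unadjusted p of 0.055. An exact two-sided permutation test of the 6 values, in which p cannot be below 0.1, gave p = 0.4. It was called with TPM (log2 fold change 1.35) and with a filter on mean FPKM of at least 1 (1.05). Those fits called 842 of 18698 and 553 of 17593 transcripts. Without the covariate, the log2 fold change of sky-RI was 0.53, and it was not called.

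sky-RG was the leading transcript of sky in 4 of the 6 pools. It had 8.75, 7.23 and 4.57 FPKM in the alcohol pools, against 4.53, 5.76 and 4.35 FPKM in the control pools, with a log2 fold change of 0.53 (95% interval -0.42 to 1.47). Its exons are identical to those of the transcript listed under CG43739, so its level is also a division between 2 entries. That entry held 5.29, 4.92 and 2.38 FPKM in the alcohol pools, against 2.33, 4.14 and 2.68 FPKM in the control pools. sky-RK had 0.821, 2.62 and 5.27 FPKM in the alcohol pools, against 3.64, 1.33 and 6.40 FPKM in the control pools. Where sky-RG was high sky-RK was low, as in alcohol pool 1.

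The 3 Synj transcripts encode the same 1218 residues and differ at both ends. Synj-RB had 9.68, 3.57 and 2.35 FPKM in the alcohol pools, against 2.77, 12.0 and 3.86 FPKM in the control pools. Synj-RC had 2.01, 6.50 and 5.56 FPKM in the alcohol pools, against 5.45, 1.46 and 6.12 FPKM in the control pools. Alcohol pool 1 and control pool 2 thus listed most of the gene as Synj-RB, 82.8% and 89.1%, and the other 4 pools listed at most 32.1% as Synj-RB.

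The 3 EndoA transcripts encode the same 369 residues. EndoA-RC, which has the longer 3′ end, had 17.2, 28.0 and 18.7 FPKM in the alcohol pools, against 17.4, 12.6 and 23.6 FPKM in the control pools. EndoA-RB had 18.4, 19.9 and 14.3 FPKM in the alcohol pools, against 14.8, 13.6 and 16.5 FPKM in the control pools. The share of EndoA-RC in the gene was 37.5%, 46.2% and 43.8% in the alcohol pools, against 41.8%, 34.8% and 44.4% in the control pools.

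Amph-RA, which encodes 602 residues, had 10.9, 6.78 and 9.57 FPKM in the alcohol pools, against 8.31, 7.79 and 7.21 FPKM in the control pools. Amph-RB, which encodes 502 residues, had 4.62, 12.2 and 5.05 FPKM in the alcohol pools, against 8.14, 4.85 and 8.32 FPKM in the control pools. Alcohol pool 2 had the lowest Amph-RA and the highest Amph-RB of the 6 pools. The sum of Amph-RA and Amph-RB had a within-group CV (pooled SD of the groups as a percentage of the mean) of 13.7%.

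AP-2alpha and Dap160 each had a single leading transcript in all pools. AP-2alpha-RA had 49.4, 59.6 and 43.0 FPKM in the alcohol pools, against 48.8, 48.2 and 61.3 FPKM in the control pools. AP-2alpha-RB had 2.198, 0.756 and 0.877 FPKM in the alcohol pools, against 0.458, 1.08 and 2.205 FPKM in the control pools. Dap160-RG had 30.4, 35.6 and 22.7 FPKM in the alcohol pools, against 24.8, 28.8 and 34.6 FPKM in the control pools. Dap160-RA, the next, had 2.74, 0.614 and 0.608 FPKM in the alcohol pools, against 3.86, 1.07 and 2.89 FPKM in the control pools.

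Differential transcript usage asks whether transcripts of a gene moved differently from each other. Of the 10 members 8 had at least 2 tested transcripts, and 0 of the 8 passed limma's diffSplice F-test at an adjusted p under 0.05 or at an unadjusted p under 0.05, beside 1.05% of 3630 genes at the adjusted threshold and 11.5% at the unadjusted one. The lowest unadjusted p in this F-test of limma was 0.33, for sky, followed by 0.35 for Chc. The share of the gene did not overlap between groups for 2 of the 30 tested member transcripts, Chc-RB and shi-RH, beside 9.92% of 11385 tested transcripts of genes with more than 1 transcript. shi-RH, named after its values were seen, made up 9.83%, 9.39% and 7.27% of shi in the alcohol pools, against 14.8%, 10.1% and 13.4% in the control pools. Among the 29 transcripts that were not tested, the shares of Chc-RG, Amph-RC and Dap160-RD did not overlap either. Their highest levels in any pool were only 0.343, 0.863 and 0.146 FPKM. The share over all transcripts that were not tested was not counted, so nothing is read from these.

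The spread between pools of a group differed between summed genes and single transcripts. The within-group CV, the pooled SD of the groups as a percentage of the mean, had a median of 17.1% over the 10 member genes, beside 14.8% over all tested genes. Over the 40 member transcripts with a mean of at least 1 FPKM the median was 42.1%. It was 41.0% for the 27 of these with no base of their own and 57.6% for the 13 with at least 1 base of their own. In all, 39 of the 57 annotated member transcripts had no base that only they hold, and the part of shared exons in the spread was not tested.

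**Figure D5:**
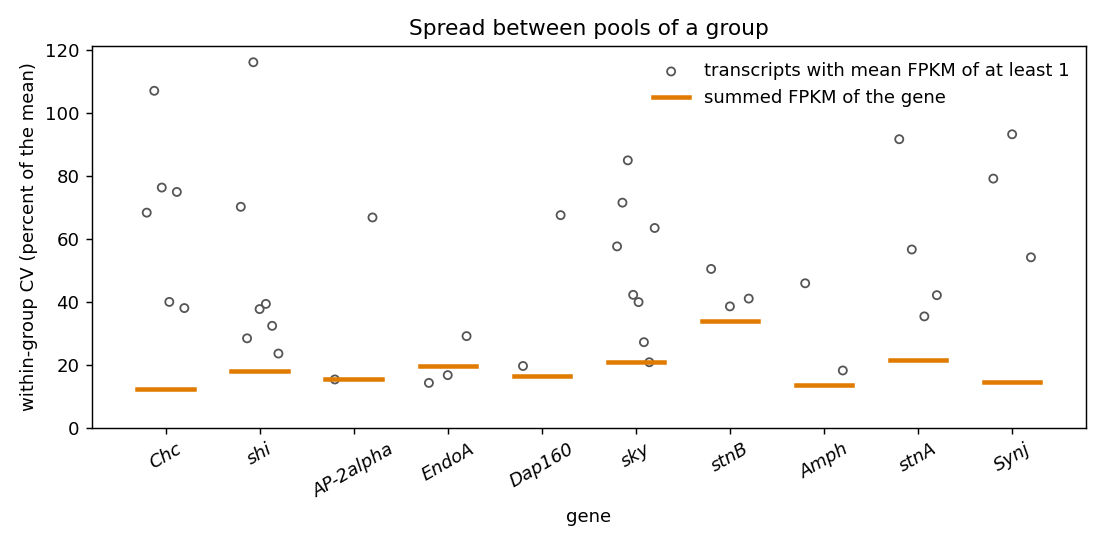
Within-group CV in percent of each member transcript with a mean of at least 1 FPKM (circles) and of the summed FPKM of its gene (orange line), genes ordered by mean level. Most circles lie above the line of their gene, and the highest circle, a shi transcript, is at 116%.

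Among partner genes of the same pathway, from lists of 24 genes, 23 were tested and 0 were called, beside 1.36% of all tested genes. Of the 23, 0 had an unadjusted p under 0.05 in limma, beside 3.42% of all tested genes. Their median log2 fold change was -0.11. In the list of clathrin coat and adaptor genes (7 tested, median -0.12), the highest level was that of Clc, the clathrin light chain, with 151, 125 and 129 FPKM in the alcohol pools, against 133, 133 and 129 FPKM in the control pools. In the list of membrane bending and actin scaffolds (6 tested, median -0.020), it was that of Cip4, an F-BAR protein, with 62.9, 77.6 and 54.7 FPKM in the alcohol pools, against 68.3, 61.7 and 75.7 FPKM in the control pools. In the list of uncoating and phosphoinositide enzymes (5 tested, median -0.12), it was Hsc70-4, the chaperone that strips clathrin, with 1126, 910 and 1010 FPKM in the alcohol pools, against 1144, 1156 and 1083 FPKM in the control pools. In the list of vesicle cycle regulators (5 of 6 tested, median -0.085), it was Rab5, the GTPase of early endosomes, with 144, 171 and 142 FPKM in the alcohol pools, against 155, 160 and 177 FPKM in the control pools. The groups overlapped for all 23, whereas 6.21% of all tested genes had groups that did not overlap.

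The 10 members together had 378, 445 and 329 FPKM in the alcohol pools, against 347, 387 and 448 FPKM in the control pools. The 8 neuron markers (elav, nSyb, Syt1, brp, futsch, Cadps, VAChT and Gad1) together had 418, 584 and 364 FPKM in the alcohol pools, against 332, 390 and 547 FPKM in the control pools. Alcohol pool 2 and control pool 3 were the highest of their groups in both sums. This was so for 6 of the 10 members singly and for 7 of the 8 neuron markers, 6 of the 8 glia markers and 14 of the 24 partner genes, beside 29.7% of all tested genes. It was so for 1 of 5 neuroblast markers. Among markers of muscle (6), fat body (6), salivary gland (9), hemocytes (5) and cuticle (5) it was so for 0. The same pools had the lowest total FPKM, 507139 in alcohol pool 2 and 502497 in control pool 3, against 557377 to 598978 in the others. The part of that total in these levels was not tested. Per 100 FPKM of neuron markers the members had 90.2, 76.2 and 90.5 FPKM in the alcohol pools, against 104, 99.4 and 81.9 FPKM in the control pools, with an exact two-sided permutation p of 0.3.

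Sequencing amounted to 2720 to 4028 aligned megabases in the alcohol pools and 3257 to 4244 in the control pools, and the covariate of the model was 28531 to 29222 in the alcohol pools and 29005 to 30450 in the control pools. Markers of neurons (0 of 8 tested), glia (0 of 7) and neuroblasts (0 of 3) held no called gene. None of these markers was listed at 0 in all pools, but nor was any listed marker of the tissues below. The brain label was therefore not tested by their presence. Of the muscle markers 6 of 6 were called higher in the alcohol pools by the fit, beside 1.36% of all tested genes called in either direction. The pools of the groups overlapped for all 6, and their summed level was 92.7 to 367 FPKM in the alcohol pools and 54.0 to 472 FPKM in the control pools. Of the salivary gland markers 3 of 9 were called higher (summed level 29985 to 45633 FPKM in the alcohol pools and 14140 to 55966 FPKM in the control pools), and of the cuticle markers 1 of 4 was (147 to 249 FPKM in the alcohol pools and 46.8 to 344 FPKM in the control pools). Of the fat body markers 1 of 6 was called lower (669 to 3947 FPKM in the alcohol pools and 2123 to 6448 FPKM in the control pools), and of the hemocyte markers 0 of 4 were called (24.4 to 28.2 FPKM in the alcohol pools and 22.8 to 35.0 FPKM in the control pools). For single genes, the groups did not overlap for 3 of the 9 salivary gland markers and 1 of the 6 fat body markers, beside 6.21% of all tested genes. They overlapped for every tested cuticle and hemocyte marker. The part of these tissues in the levels of the members, Amph with its known role in muscle included, was not tested.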

How the data were processed

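RNA was measured in 3 alcohol and 3 control pools of larval brains. Per the labels and the paper's methods, polyA RNA was made into stranded libraries, reads were checked with FastQC 0.11.9, trimmed with Trimmomatic 0.39, aligned to dm6 with HISAT2 2.2.0 and quantified with StringTie 2.1.4. Per transcript and pool, the authors deposited FPKM and read coverage (a signal per base). A further table holds the authors' fold changes and p-values and was not used in any fit. No read counts were used, so no counting error is given. The precision of each value is the spread between pools, and depth was 2720 to 4244 aligned megabases per pool.

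Groups and replicate numbers came from the labels. With R 4.3.3 and limma 3.58.1, transcripts (or FPKM summed per gene name) with a variance above 1 were fitted as log2(FPKM + 1) on treatment and Ballgown's library-size covariate (nonzero values below the 75th percentile), with Benjamini-Hochberg adjustment over all features tested. A call needed a log2 fold change beyond 1 in either direction and an unadjusted p under 0.05. Fold changes on this scale understate the change of low transcripts. Usage was tested with diffSplice, and single values with an exact two-sided permutation test over 20 assignments. The smallest p of that permutation test is 0.1, so it could not fall under 0.05. The fit was tested on simulated data. Python 3.11.15, numpy 2.4.6, pandas 2.3.3 and matplotlib 3.10.9 did the rest.

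The members and lists were chosen with earlier results of these data known. All 10 genes are named. Of transcripts, the 2 with the highest mean FPKM of each gene, every called one and every tested one whose groups did not overlap are named. sky-RI is named because the study, on these same data, lists it. The paper, which used Ballgown, places sky among its alcohol-upregulated genes, under an enriched term for chemical synaptic transmission. The limma fit reported here did not call sky-RI. Of partners, the called genes and the highest of each list are named. Alternatives were other normalizations, filters and pseudocounts, a replicate block, the ordinary F-test, leaving out each pool, and merging stnA with stnB.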

Additional observations from a re-analysis of the deposited data

How the results depend on the processing

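The count of called member genes, of member genes with differential transcript usage and of called partner genes was 0 in the reported fit and in every alternative run. Over all genes, these fits called 48 to 167 of the 7644 to 15914 tested. For usage it was 1 to 80 of the 3476 to 6791 tested. With shares this small, a count of 0 among so few genes is not read as a result about them. The count of called member transcripts was 0 in the reported fit, with no variance filter and with the ordinary F-test. It was 1 without the covariate (Chc-RB 1.26), with quantile normalization without the covariate (Chc-RB 1.32), with TPM (sky-RI 1.35), with mean FPKM of at least 1 (sky-RI 1.05) and with a pseudocount of 0.1 (Chc-RE). Over all transcripts tested, the calls were 348 of 14645 without the covariate, 352 of 14645 with quantile normalization and 842 of 18698 with TPM. They were 553 of 17593 with mean FPKM of at least 1 and 567 of 14645 with a pseudocount of 0.1. Leaving out single pools gave 0 to 2 called member transcripts, beside 605 to 824 of the 13769 to 14494 transcripts tested in those fits. Among the 2 highest transcripts of each gene, 20 in all, the shares of 0 did not overlap between groups, and of 0 to 3 when a pool was left out. Of the 30 tested member transcripts it was 2 with all pools (9.92% of all tested) and 3 to 6 with a pool left out (17.1% to 22.1% of all tested), Chc-RB and shi-RH each time among them. The causes were not tested.

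Some fold changes turned sign. Without the covariate these were shi 0.040, stnB 0.014, Chc-RC 0.11, Synj-RC 0.13, stnA-RD 0.19 and stnB-RE 0.41. With TPM they were shi 0.066, AP-2alpha 0.0050, Dap160 0.070, AP-2alpha-RA 0.25, Amph-RB 0.61, Chc-RC 0.60, Dap160-RG 0.36, Synj-RC 0.52, shi-RO 0.47, stnA-RD 0.64 and stnB-RE 0.59. With quantile normalization they were shi 0.060, stnB 0.10, Dap160 0.018, Chc-RC 0.14, Dap160-RG 0.025, Synj-RC 0.26, stnA-RD 0.35 and stnB-RE 0.53. The pseudocount of 0.1 gave sky -0.0025, no variance filter Chc-RC 0.019 and mean FPKM of at least 1 Chc-RC 0.039.

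Same-numbered pools did not deviate together (correlations -0.24 to -0.0096), so the numbers were not taken as pairs. With the replicate block and the covariate 2 member transcripts were called (Chc-RB 2.99 and stnA-RD -2.73), beside 674 of 14645 over all. In that fit these turned sign: sky -0.044, Amph-RB 0.68, EndoA-RB -0.074, Synj-RC 1.83, shi-RO 0.14, shi-RP -0.16, sky-RG -0.38, sky-RK 1.23 and stnA-RE 1.05. With the replicate block and no covariate 1 was called (Chc-RB 1.26), beside 323 of 14645 over all. There shi 0.040, stnB 0.014, Chc-RC 0.11, Synj-RC 0.13, stnA-RD 0.19 and stnB-RE 0.41 turned sign. The block changed no other call.

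Leaving out each pool in turn, fold changes ranged over Chc -0.38 to -0.20, AP-2alpha -0.28 to -0.0062, stnA -0.60 to -0.21, stnB -0.51 to -0.21, Amph 0.036 to 0.32, Synj -0.35 to -0.14, Chc-RB 0.78 to 1.70, Amph-RA 0.11 to 0.46, EndoA-RB 0.13 to 0.50, sky-RG 0.25 to 0.70, stnA-RD -1.20 to -0.16, stnA-RE -0.98 to -0.53, stnB-RE -1.18 to -0.33, shi -0.24 to 0.076, EndoA -0.12 to 0.34, Dap160 -0.19 to 0.045, sky -0.26 to 0.33, AP-2alpha-RA -0.26 to 0.12, Amph-RB -0.41 to 0.40, Chc-RA -1.39 to 0.0089, Chc-RC -0.59 to 0.70, Dap160-RA -0.70 to 0.96, Dap160-RG -0.26 to 0.12, EndoA-RC -0.21 to 0.68, Synj-RB -1.11 to 0.55, Synj-RC -0.69 to 0.81, shi-RO -0.43 to 0.36, shi-RP -0.10 to 0.75, sky-RI 0.87 to 1.36 and sky-RK -1.47 to -0.057. Calls appeared for sky-RI (1.15) without alcohol pool 3, sky-RK (-1.28) without control pool 1, Chc-RA (-1.39) and shi-RI (-2.51) without control pool 3, and Chc-RE (-3.34) and Chc-RF (-1.70) without alcohol pool 2. With 3 pools a group, 26 of the 30 tested member transcripts had intervals that reached beyond a 2-fold change.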
